A study of Mus musculus with 62 samples.

Results

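Collagens are the main structural proteins of the matrix that surrounds cells, and the collagen genes were taken as every gene of the expression table whose symbol has the form Col, a type number, a and a chain number. This gave 44 of the 47643 genes in the table: 11 chains of fibrillar collagens, 8 chains of collagens found in or at basement membranes and 25 other chains. The study profiled diaphragm muscle by RNA-seq in 62 female mice that were injected with melanoma cells that cause wasting (cachectic), with melanoma cells that do not (non-cachectic) or with no cells (control, mock injection), and collected at 2, 4, 6 or 8 weeks. Each of the 12 conditions had 5 mice apart from 8-week cachectic mice, where 7 were profiled. The labels give an age of 2 months for all mice at every week. The study's methods give that age for the mice when purchased, so age at collection is not given by week. The sample labels give the strain as C57BL6/J, whereas the design text and the study's methods name NCI Ath/nude mice, a host that lacks mature T cells; the 3 groups do not differ in this label. Both tumors were patient-derived melanoma xenografts, 1 of each kind, so a difference between cachectic and non-cachectic mice is also a difference between those tumors, and the origin of the xenografts and the presence of wasting cannot be told apart.

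As background, collagen chains wind into helices that are hydroxylated and folded with the help of chaperones in the secretory pathway, trimmed outside the cell and cross-linked by lysyl oxidases. In muscle, types I and III form the fibrils of the connective tissue layers, and type V helps to start them. Type IV forms the network of the basement membrane around each fiber, and types XV and XVIII link that network to the neighbouring fibrils. Type VI forms beaded filaments at the outer face of the basement membrane, built from the alpha 1, alpha 2 and alpha 3 chains; the alpha 4, alpha 5 and alpha 6 chains resemble alpha 3. Fibroblasts and fibro-adipogenic cells make most of the fibrillar chains.

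The 44 genes lie on 15 chromosomes (GENCODE M21 annotation, build GRCm38), and several chains of a type are neighbours. Col6a2 and Col6a1 lie on the same strand of chromosome 10 with 85161 bases between them. Col4a1 and Col4a2 stand head to head on chromosome 8 (Col4a1 at 11198423 to 11312826, minus strand; Col4a2 at 11312805 to 11449287, plus strand), so that the annotated genes overlap by 22 bases. Col6a6 and Col6a5 follow each other on the minus strand of chromosome 9 with 27917 bases between them. Exons of 13 of the 44 genes share bases with another annotated gene. They are Col3a1, Col5a1, Col4a1, Col4a2, Col15a1, Col22a1, Col6a6, Col4a3, Col6a4, Col7a1, Col9a3, Col10a1 and Col20a1. The labels name a stranded kit and the methods one that does not mark strand, so for those genes reads of the overlapping gene may be included.

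The 250 bases before the RefSeq start (GRCm38.p6) are shown for the most abundant collagen gene, Col3a1 (chr1:45311288-45311537, plus strand), for Col15a1 (chr4:47207762-47208011, plus strand), which had the largest difference, and for a pair of type VI chains of which 1 fell at 8 weeks and the other rose at 6 weeks against control, Col6a3 (chr1:90843972-90844221, minus strand) and Col6a5 (chr9:105960644-105960893, minus strand). They are written 5′ to 3′. Capitals mark motifs found on either strand. The motif of the TATA box was searched as TATAAA. For the GC box, a site of the factor family of Sp1, the letters were GGGCGG. The third motif, the CCAAT box, is spelled by its name.
Col3a1: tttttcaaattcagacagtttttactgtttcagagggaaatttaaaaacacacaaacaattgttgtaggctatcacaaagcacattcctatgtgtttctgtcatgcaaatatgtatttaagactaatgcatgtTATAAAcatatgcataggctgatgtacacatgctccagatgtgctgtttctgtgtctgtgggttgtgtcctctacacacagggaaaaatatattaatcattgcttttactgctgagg
Col15a1: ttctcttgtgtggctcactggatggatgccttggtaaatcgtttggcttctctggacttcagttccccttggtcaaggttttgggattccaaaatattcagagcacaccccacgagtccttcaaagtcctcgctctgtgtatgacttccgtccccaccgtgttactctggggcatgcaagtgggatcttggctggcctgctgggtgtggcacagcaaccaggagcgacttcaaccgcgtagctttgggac
Col6a3: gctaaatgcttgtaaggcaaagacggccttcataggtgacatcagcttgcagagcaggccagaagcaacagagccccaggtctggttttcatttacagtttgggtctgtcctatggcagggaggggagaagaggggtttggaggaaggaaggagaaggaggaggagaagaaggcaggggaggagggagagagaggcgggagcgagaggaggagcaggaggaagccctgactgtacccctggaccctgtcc
Col6a5: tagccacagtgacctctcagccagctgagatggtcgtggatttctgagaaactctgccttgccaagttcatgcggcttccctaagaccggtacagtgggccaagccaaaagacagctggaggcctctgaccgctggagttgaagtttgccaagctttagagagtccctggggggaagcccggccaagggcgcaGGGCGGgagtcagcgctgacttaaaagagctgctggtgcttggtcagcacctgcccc
Col3a1 holds a TATA box 117 bases before the start and Col6a5 a GC box 57 bases before it. The windows of Col15a1 and Col6a3 hold no match to these letters. The windows differ in base composition, with 35.2% G and C for Col3a1, 53.6% for Col15a1, 57.2% for Col6a3 and 58.8% for Col6a5. RefSeq windows were matched for 35 of the 44 genes (38 windows). A GC box lay in 22 of the 38 (57.9%) against 32.7% of all 32851 windows, a CCAAT box in 13 (34.2%) against 33.8%, and a TATA box in 5 (13.2%) against 12.4%.

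The deposited values are TPM (transcript abundance scaled to a fixed sum in each library), which set each transcript against its length and the whole library, and which keep no read counts, so the depth of each library is unknown and low values carry no counting interval. All 62 columns sum to 1000000. The skeletal muscle markers (8 genes) summed to between 56397 and 91468 TPM at 8 weeks, and the cartilage markers reached at most 9.69 TPM there. In 4 libraries (cachectic mice 3 and 4 and non-cachectic mouse 5 at 2 weeks, cachectic mouse 3 at 8 weeks) only 15069 to 16389 genes were above 0 against 17909 to 19057 in the others, and mitochondrially encoded transcripts made up 54.4% to 61.5% of TPM against 32.5% to 50.1%. This share also moved with the groups: at 8 weeks it was 32.5% to 41.6% in cachectic mice without mouse 3 (57.1%), 40.9% to 49.3% in control and 44.7% to 45.6% in non-cachectic mice, and at 6 weeks 34.3% to 44.9%, 44.9% to 47.9% and 43.2% to 47.9%. With TPM rescaled without the mitochondrially encoded genes, 25 and 22 collagen genes fell at 8 weeks against control and non-cachectic mice, in place of 17 and 15 in the comparisons given later. The level filter was applied again after rescaling, so the set of genes tested was not the same. The share of all genes that fell in that fit is not given here, so the larger counts are not read as a stronger result. In 4 others (control mice 2, 4 and 5 at 2 weeks, cachectic mouse 5 at 6 weeks) the mean log2(TPM + 1) of 10 liver markers was 7.89 or more, the next highest library having 7.57. Several collagen counts and log2 fold changes are given with and without these libraries. The others are given with them only, so those at 8 weeks include cachectic mouse 3. The labels do not say how mice were housed or processed, so p-values measure the spread between the mice of a condition. RNA was taken from whole muscle, in which fewer cells of a type and less RNA per cell cannot be told apart.

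In the 20 control mice the most abundant collagen gene was Col3a1, with a median of 125 TPM (lowest 53.9, highest 197). Col4a1 followed with 74.8 TPM and Col6a1 with 73.4 TPM. Col3a1 was above Col4a1 in 18 of the 20 mice, whereas Col4a1 was above Col6a1 in 14, so the last pair was not separated beyond the spread. Col1a1 (55.6 TPM), Col1a2 (54.8 TPM) and Col4a2 (48.3 TPM) came next, with Col1a1 above Col1a2 in 16 mice and Col1a2 above Col4a2 in 12. Col15a1 had a median of 34.4 TPM, Col14a1 of 27.5 TPM and Col6a3 of 17.9 TPM.

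**Figure D1:**
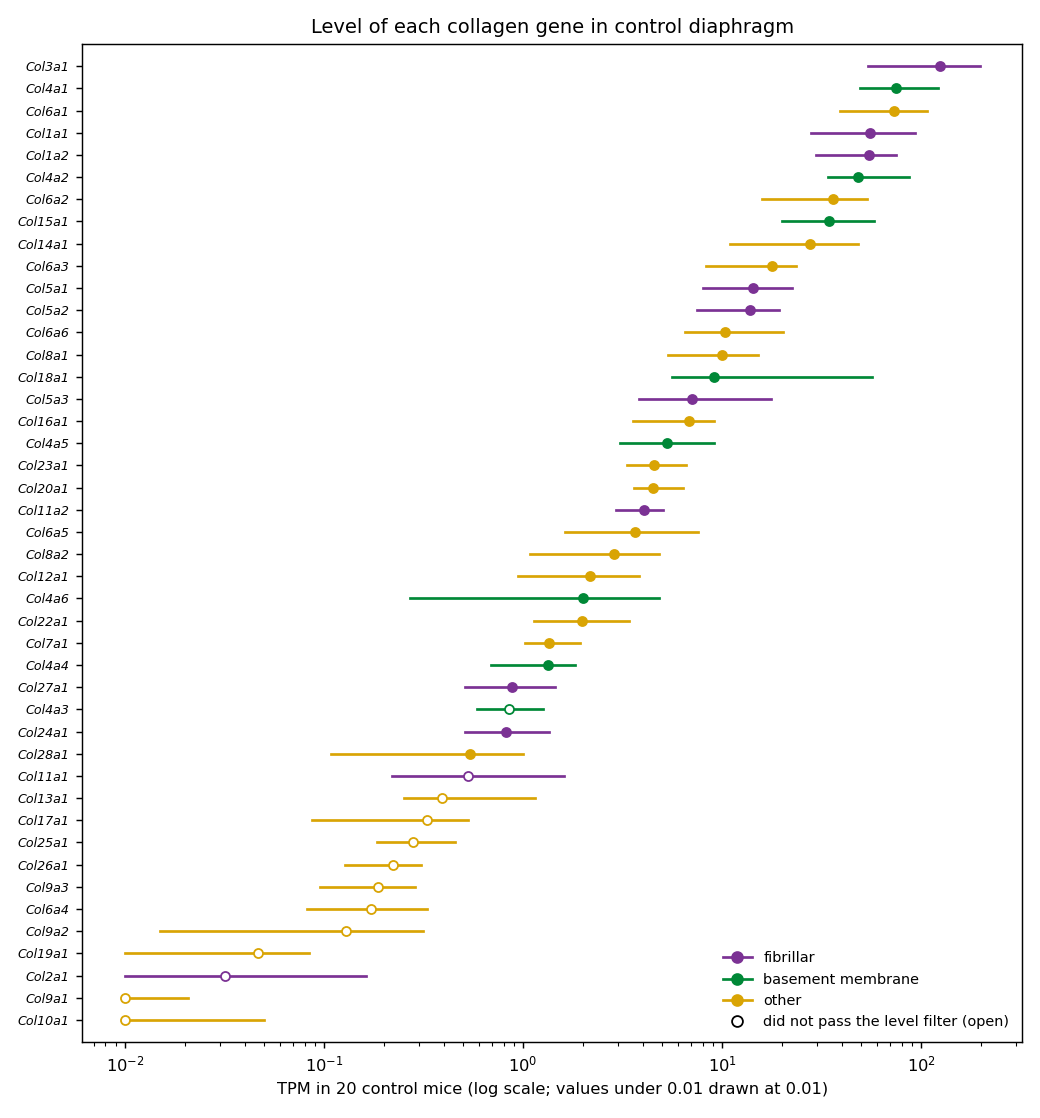
Level of the 44 collagen genes in the 20 control mice, in TPM on a log axis, ordered by the median. Points are medians, bars run from the lowest to the highest mouse, colors give the class, and open points mark the 13 genes that did not reach 1 TPM in 5 mice; Col3a1 is highest at 125 TPM and Col9a1 and Col10a1 have a median of 0.

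A gene was tested when it reached 1 TPM in at least 5 of the 62 mice. This held for 31 of the 44 collagen genes, 9 of 11 fibrillar, 7 of 8 basement membrane and 15 of 25 other chains. The 13 that did not were Col4a3 (highest value in any mouse 1.27 TPM), Col11a1 (1.61 TPM), Col13a1 (1.15 TPM), Col17a1 (4.06 TPM), Col25a1 (0.510 TPM), Col26a1 (0.377 TPM), Col9a3 (0.409 TPM), Col6a4 (0.607 TPM), Col9a2 (0.327 TPM), Col19a1 (0.0983 TPM), Col2a1 (0.163 TPM), Col9a1 (0.0546 TPM) and Col10a1 (0.0502 TPM). Of the chains found in cartilage, those of types II, IX and X were thus at 0.409 TPM or less in every mouse. Col11a2, a chain of type XI, which cartilage also holds, did pass, with a median of 4.04 TPM in the control mice. Differences were tested on log2(TPM + 1) with limma over all 13578 genes that passed, and a gene is said to have risen or fallen when its adjusted p (Benjamini-Hochberg over those genes) was under 0.05.

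The first comparison asks which collagen genes differ at 8 weeks, the last week collected. In cachectic against control mice 17 of the 31 genes fell and none rose, beside 8.12% of all genes tested that fell and 6.65% that rose. The fall was found in 8 of 9 fibrillar genes, 3 of 7 basement membrane genes and 6 of 15 others. The median log2 fold change of the 31 genes was -0.80, against -0.09 for all genes tested, and 12 of them were below -1. Leaving out the 4 libraries with few genes left 17 genes lower and 2 higher, a setting for which the share of all genes is not given here. Against non-cachectic mice, which share the same cachectic samples, 15 genes fell and none rose, beside 6.19% of all genes that fell and 6.75% that rose, with a median log2 fold change of -0.72. The 17 genes of the first comparison included 8 fibrillar chains (Col3a1, Col1a1, Col1a2, Col5a1, Col5a2, Col5a3, Col11a2 and Col24a1), and the 15 of the second 6 of them, without Col5a3 (-0.70) and Col24a1 (-0.26).

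**Figure D2:**
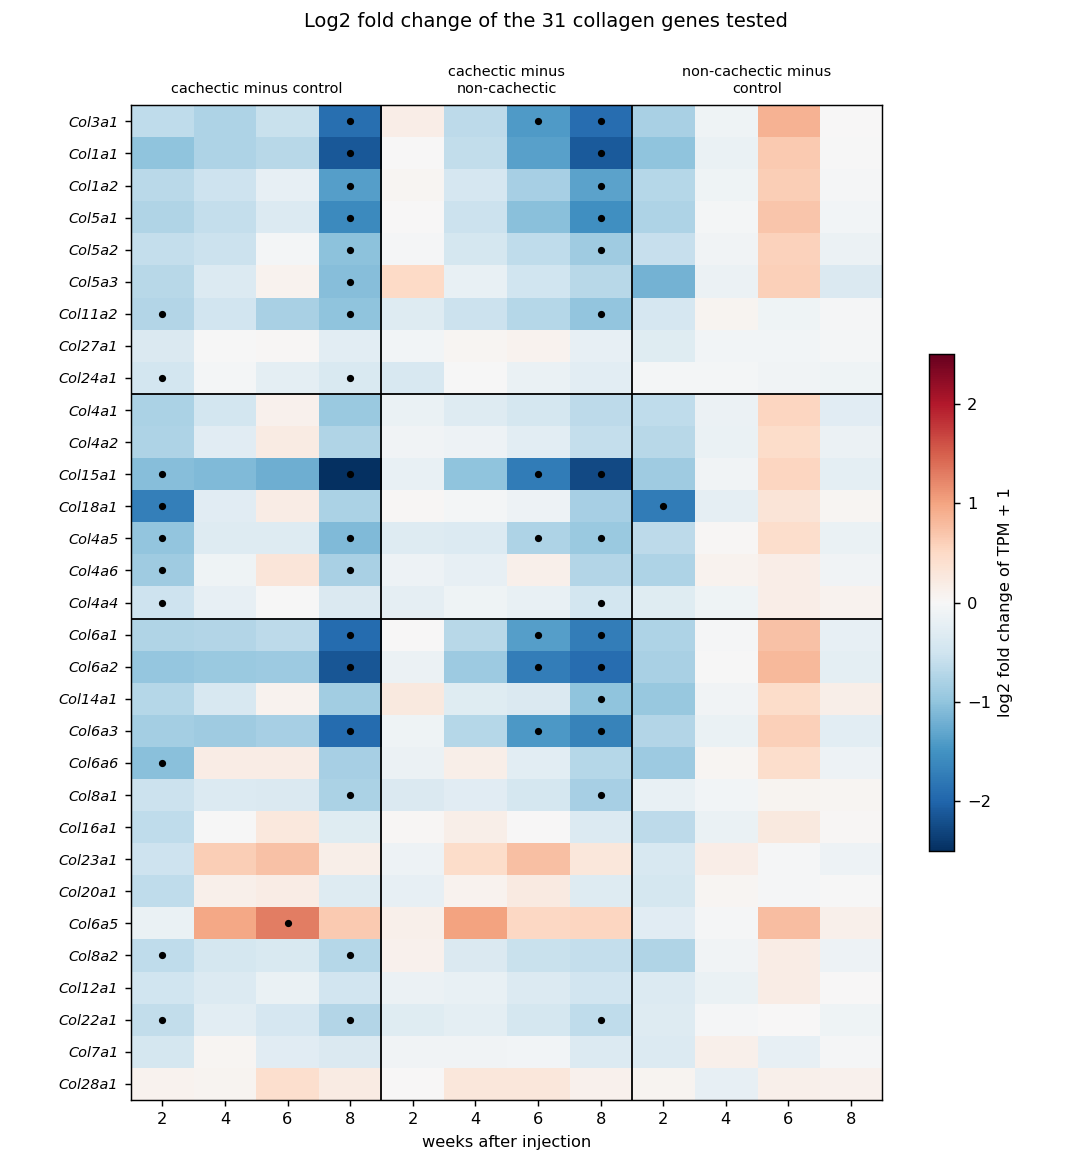
Log2 fold change of TPM + 1 for the 31 collagen genes tested (rows; fibrillar, basement membrane and other chains from top to bottom) in 12 comparisons (columns, by week), with a dot where the adjusted p was under 0.05. Blue with a dot at 8 weeks in the cachectic blocks shows the 17 and 15 genes that fell. Red is any log2 fold change above 0, and among the red cells only that of Col6a5 against control at 6 weeks has a dot.

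Among the fibrillar chains, Col1a1, which encodes the alpha 1 chain of type I, was measured at 35.3, 85.2, 75.9, 67.3 and 56.3 TPM in the control mice at 8 weeks and at 67.7, 111, 19.4, 72.4 and 77.4 TPM in the non-cachectic mice. In the 7 cachectic mice it ran from 2.81 to 38.1 TPM with a median of 18.4 TPM. All but 1 of the cachectic mice lay below every control mouse, and the non-cachectic mouse 3 lay inside their range. The log2 fold change was -2.12 ± 0.46 (SE; limma, adjusted p = 0.000672) against control and -2.11 ± 0.46 (adjusted p = 0.000853) against non-cachectic mice.

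Col1a2, the partner chain of type I, was at 30.3, 70.5, 61.2, 59.4 and 56.2 TPM in control mice and 55.0, 78.0, 19.8, 64.8 and 70.8 TPM in non-cachectic mice at 8 weeks. In cachectic mice it ran from 7.99 to 44.9 TPM with a median of 22.3 TPM, so the groups overlapped in 3 cachectic mice above the lowest control mouse. It fell by 1.37 on the log2 scale against control (SE 0.35; limma, adjusted p = 0.00416).

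Col3a1, the only chain of type III, was at 60.6, 142, 126, 136 and 97.3 TPM in control mice and 108, 168, 40.1, 126 and 161 TPM in non-cachectic mice at 8 weeks. In cachectic mice it ran from 7.93 to 82.1 TPM with a median of 27.1 TPM, and 6 of the 7 lay below every control mouse. The log2 fold change was -1.89 ± 0.39 (limma, adjusted p = 0.000428).

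Col5a1, a chain of type V, was at 11.9, 19.5, 19.95, 18.1 and 12.8 TPM in control mice at 8 weeks and 13.6, 21.5, 8.69, 17.4 and 18.9 TPM in non-cachectic mice. In cachectic mice it ran from 0.977 to 9.04 TPM with a median of 5.61 TPM. Every cachectic mouse lay below every control mouse. The log2 fold change was -1.59 ± 0.35 (limma, adjusted p = 0.000936). The other fibrillar genes that fell against control were Col5a3 (-1.06), Col5a2 (-1.03), Col11a2 (-1.001) and Col24a1 (-0.37), while Col27a1 had a log2 fold change of -0.26 that did not pass the test.

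In the basement membrane class all 7 chains tested had a log2 fold change below 0 against control, of which 3 passed the test. Col15a1, which encodes the alpha 1 chain of type XV, was at 29.1, 52.4, 48.8, 42.3 and 32.6 TPM in control mice and 34.4, 51.0, 10.9, 44.6 and 50.4 TPM in non-cachectic mice at 8 weeks. In cachectic mice it ran from 2.07 to 10.6 TPM with a median of 8.35 TPM, below every mouse of both other groups. It had the largest fall of the 31 genes, with a log2 fold change of -2.49 ± 0.39 (limma, adjusted p = 7.4e-06) against control and -2.25 ± 0.39 (adjusted p = 3.96e-05) against non-cachectic mice, or 5.61-fold and 4.76-fold on the TPM + 1 scale.

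Col4a1, a chain of the ubiquitous type IV network, was at 81.7, 122, 111, 90.3 and 76.0 TPM in control mice and 76.8, 106, 48.4, 75.9 and 94.7 TPM in non-cachectic mice. Cachectic mouse 3, whose library had few genes, was at 7.72 TPM, and the other 6 cachectic mice ran from 57.2 to 73.5 TPM. Every cachectic mouse thus lay below every control mouse, by a narrow margin in those 6. The log2 fold change of -0.94 ± 0.36 did not pass the test (limma, adjusted p = 0.0674), and without the few-gene libraries it was -0.52 (adjusted p = 0.0552).

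Col4a2, the partner chain of Col4a1, was at 57.3, 87.1, 70.9, 65.2 and 47.6 TPM in control mice and 61.9, 75.2, 42.8, 54.5 and 59.4 TPM in non-cachectic mice. In cachectic mice it was at 4.84 TPM in mouse 3 and between 47.4 and 60.5 TPM in the other 6. Its log2 fold change of -0.75 ± 0.38 did not pass (95% interval -1.51 to 0.0046; limma, adjusted p = 0.188), and it was -0.30 without the few-gene libraries.

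Col18a1, the precursor of endostatin, was at 5.59, 11.6, 8.88, 13.7 and 7.32 TPM in control mice, 9.54, 10.3, 7.28, 11.1 and 8.82 TPM in non-cachectic mice and 0.699 to 7.97 TPM, median 5.60, in cachectic mice, and did not pass (-0.79 ± 0.38; limma, adjusted p = 0.163). Col4a5 (-1.10) and Col4a6 (-0.80), chains of another type IV network, fell against control. Col4a4 fell against non-cachectic mice (-0.45, limma adjusted p = 0.0305) and had a log2 fold change of -0.36 against control (adjusted p = 0.0966). The difference between those comparisons was not tested. The call against non-cachectic mice held in 6 of 12 fits that each left out 1 mouse. It was lost without cachectic mouse 3, the few-gene library (limma, adjusted p = 0.0862).

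The 3 main chains of type VI fell together. Col6a1 was at 48.4, 89.9, 80.8, 86.1 and 71.7 TPM in control mice, at 61.2, 90.5, 26.2, 85.4 and 87.0 TPM in non-cachectic mice and between 7.07 and 40.2 TPM, median 18.3, in cachectic mice at 8 weeks. Col6a2 was at 24.6, 46.0, 43.0, 41.5 and 35.7 TPM in control mice, at 29.2, 49.1, 10.7, 43.0 and 44.7 TPM in non-cachectic mice and between 2.76 and 16.9 TPM, median 7.97, in cachectic mice. Col6a3 was at 12.7, 23.4, 22.7, 20.2 and 17.7 TPM in control mice, at 14.1, 24.3, 6.44, 20.2 and 20.6 TPM in non-cachectic mice and between 1.62 and 8.70 TPM, median 5.48, in cachectic mice. For each of the 3 genes every cachectic mouse lay below every control mouse, and non-cachectic mouse 3 lay within the cachectic range. The log2 fold changes against control were -1.93 ± 0.36 for Col6a1 (limma, adjusted p = 8.28e-05), -2.14 ± 0.39 for Col6a2 (adjusted p = 7.39e-05) and -1.93 ± 0.33 for Col6a3 (adjusted p = 2.52e-05).

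Col6a5, which encodes the alpha 5 chain of the same type, did not follow them. It was at 2.17, 5.28, 3.62, 7.62 and 2.43 TPM in control mice, at 5.29, 4.31, 2.45, 5.32 and 4.81 TPM in non-cachectic mice and at 4.85, 14.6, 3.08, 4.48, 11.98, 3.74 and 11.4 TPM in cachectic mice 1 to 7 at 8 weeks. Cachectic mice 2, 5 and 7 were above every control mouse, and the other 4 were inside the control range. The log2 fold change was 0.66 ± 0.32 (limma, adjusted p = 0.175), and 0.81 (adjusted p = 0.0431) without the few-gene libraries. Its neighbour Col6a6 had a log2 fold change of -0.84 ± 0.33 that did not pass (adjusted p = 0.0783). Without those libraries Col23a1, a transmembrane collagen, also passed (log2 fold change 0.49, adjusted p = 0.0109), where it was 0.14 with them.

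Of the collagens that bind to fibril surfaces, Col14a1 was at 11.0, 24.0, 27.1, 38.7 and 24.1 TPM in control mice, at 25.0, 33.4, 12.6, 27.7 and 38.9 TPM in non-cachectic mice and between 3.60 and 32.1 TPM, median 13.1, in cachectic mice at 8 weeks. Col14a1 fell against non-cachectic mice (-1.01 ± 0.34, limma adjusted p = 0.0351), and its log2 fold change against control was -0.86 ± 0.34 (adjusted p = 0.0749). The call against non-cachectic mice held in 5 of 12 fits that each left out 1 mouse. Col12a1 was at 0.947, 2.22, 2.78, 1.83 and 2.73 TPM in control mice, at 2.03, 2.59, 1.43, 1.89 and 2.27 TPM in non-cachectic mice and between 0.284 and 2.10 TPM, median 1.37, in cachectic mice, and did not pass in either comparison. Col22a1, known from the junction of muscle and tendon, was at 1.83, 3.40, 2.98, 1.56 and 2.48 TPM in control mice, at 2.49, 2.09, 1.43, 1.96 and 2.99 TPM in non-cachectic mice and between 0.0969 and 1.66 TPM, median 1.26, in cachectic mice. It fell by 0.73 on the log2 scale against control (SE 0.21; limma, adjusted p = 0.0107). Col8a1 (-0.79) and Col8a2 (-0.71), chains of a network collagen of vessels, fell as well.

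**Figure D3:**
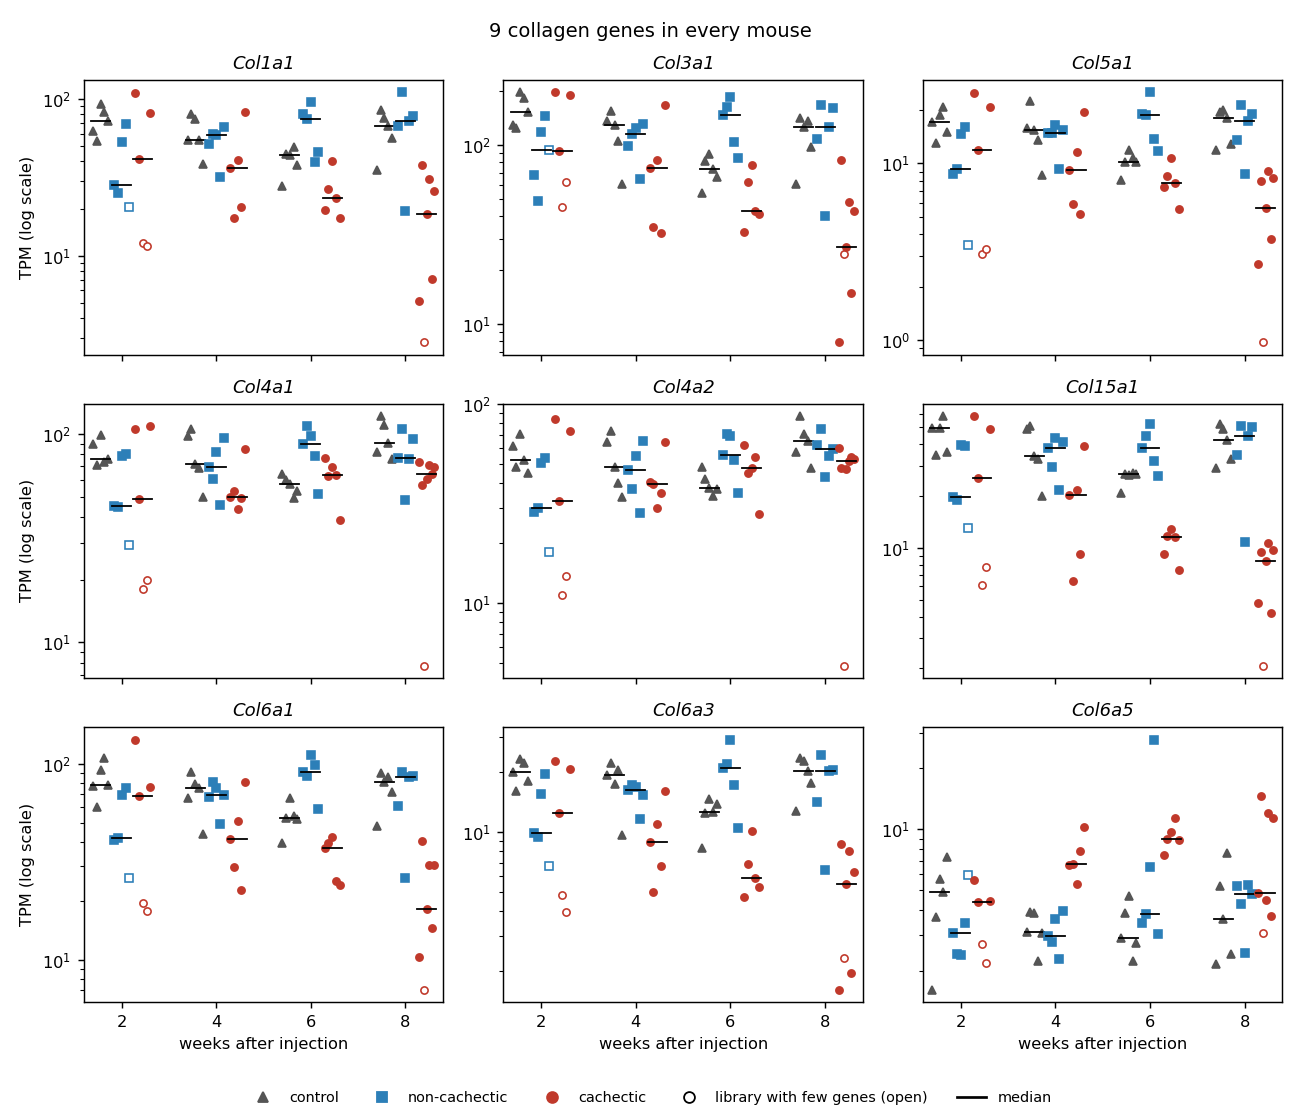
TPM of 9 collagen genes in every mouse (log axes) by week after injection; triangles are control, squares non-cachectic and circles cachectic mice, bars are medians and open symbols are the 4 libraries with few genes. At 8 weeks Col15a1 is at 2.07 to 10.6 TPM in cachectic mice, below all others, Col4a1 and Col4a2 are within 57.2 to 73.5 and 47.4 to 60.5 TPM in 6 of 7 cachectic mice, and Col6a5 is above the control mice at 4 and 6 weeks.

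Groups that did not overlap at all were counted as a description. At 8 weeks every cachectic mouse lay below every control mouse for 6 of the 31 genes (Col5a1, Col4a1, Col15a1, Col6a1, Col6a2 and Col6a3), beside 3.82% of all genes tested, and below every non-cachectic mouse for 2 (Col15a1 and Col4a6), beside 2.42%. The low values of non-cachectic mouse 3 limit the second count. The cachectic mice themselves were spread: Col1a1 was at 5.18, 2.81 and 7.11 TPM in mice 1, 3 and 6 and at 38.1, 18.4, 30.9 and 25.9 TPM in mice 2, 4, 5 and 7. The same mice 2, 5 and 7 that were highest in Col1a1 were highest in Col6a5.

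At 6 weeks the genes that passed differed between the comparisons, while none passed in non-cachectic against control mice (0% of all genes). Against non-cachectic mice 6 of the 31 genes fell and none rose (1.57% of all genes tested fell and 4.28% rose): Col15a1 (-1.75), Col6a2 (-1.73), Col6a3 (-1.44), Col3a1 (-1.41), Col6a1 (-1.38) and Col4a5 (-0.77). Against control mice no collagen gene fell and Col6a5 alone rose (1.17% and 5.62% of all genes). Of the 6, Col15a1, Col6a2 and Col6a3 passed in all 10 fits that each left out 1 mouse, whereas Col6a1 passed in 8, Col3a1 in 4 and Col4a5 in 2. Without the liver-high libraries, which include cachectic mouse 5 of this week, 3 genes fell against non-cachectic mice and Col6a5 alone rose against control. The Dunn test, run here with the same adjustment over all genes, called none in either comparison. The study used this test with its own cutoffs on p and fold change, which were not applied here. Without the few-gene libraries, none of which is from this week, only the shared estimate of the spread changes. In that fit 13 genes fell and 1 rose against non-cachectic and 7 fell and 3 rose against control mice. The 3 were Col23a1 (0.73, limma adjusted p = 0.000747), Col6a5 (1.28, adjusted p = 0.00313) and Col28a1 (0.42, adjusted p = 0.0394). Col23a1 was at 8.62 ± 3.09 (SD) TPM in cachectic and 4.61 ± 0.45 TPM in control mice at 6 weeks. The change of the spread acts on all genes tested. The share of all genes that passed is not given for this fit or for the one without the liver-high libraries.

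Col15a1 was at 9.23, 11.8, 12.9, 11.6 and 7.47 TPM in the cachectic mice at 6 weeks, at 20.7, 26.8, 26.5, 27.1 and 26.8 TPM in control and at 38.1, 44.5, 52.2, 31.8 and 26.0 TPM in non-cachectic mice. The cachectic mice lay below all mice of both other groups. Its log2 fold change of -1.21 ± 0.42 against control did not pass (limma, adjusted p = 0.07), while that against non-cachectic mice did (adjusted p = 0.00619). It was 1 of 2 genes below every control mouse, with Col11a2 (2.95% of all genes), and 1 of 9 below every non-cachectic mouse (3.3%).

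The sum of all 44 genes in control mice had medians of 783, 712, 492 and 790 TPM at 2, 4, 6 and 8 weeks, and the low value at 6 weeks was not tested. Col1a1 was at 27.9, 44.3, 44.1, 49.4 and 37.7 TPM in control mice, 80.6, 74.9, 95.6, 39.9 and 45.7 TPM in non-cachectic mice and 19.7, 26.7, 40.4, 23.3 and 17.4 TPM in cachectic mice. Col1a2 was at 29.8, 44.4, 43.2, 47.5 and 38.4 TPM in control mice, 76.2, 70.6, 85.0, 43.3 and 46.9 TPM in non-cachectic mice and 30.7, 38.5, 51.3, 32.0 and 25.2 TPM in cachectic mice. In both genes the cachectic and control mice overlapped. Col3a1 was at 53.9, 81.6, 89.3, 73.6 and 66.6 TPM in control mice, 147, 163, 185, 104 and 85.0 TPM in non-cachectic mice and 32.5, 62.1, 77.6, 43.0 and 41.0 TPM in cachectic mice. Col5a1 was at 8.01, 10.2, 11.9, 10.8 and 10.3 TPM in control mice, 19.1, 18.9, 25.3, 13.7 and 11.7 TPM in non-cachectic mice and 7.36, 8.53, 10.7, 7.79 and 5.53 TPM in cachectic mice. In these the cachectic mice lay below the non-cachectic mice without overlap, and overlapped the control mice. The median of the 31 genes in non-cachectic against control mice at 6 weeks was 0.44 on the log2 scale (0.03 over all genes), and none passed the test.

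The main type VI chains at 6 weeks were lowest in cachectic mice by their medians. Col6a1 was at 39.3, 52.9, 66.9, 53.9 and 52.2 TPM in control mice, 90.4, 87.0, 111, 98.99 and 58.7 TPM in non-cachectic mice and 37.4, 39.3, 42.4, 25.4 and 24.1 TPM in cachectic mice. Col6a2 was at 15.9, 27.1, 31.5, 26.0 and 26.3 TPM in control mice, 46.2, 44.3, 59.8, 50.5 and 27.7 TPM in non-cachectic mice and 12.5, 14.1, 18.2, 10.7 and 9.504 TPM in cachectic mice. Col6a3 was at 8.28, 12.5, 14.7, 12.5 and 13.9 TPM in control mice, 20.9, 21.9, 29.0, 17.3 and 10.5 TPM in non-cachectic mice and 4.70, 6.90, 10.1, 5.88 and 5.33 TPM in cachectic mice. For all 3 chains the cachectic mice lay below every non-cachectic mouse and overlapped the control mice.

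Col6a5 rose at 6 weeks. It was at 7.48, 8.92, 9.77, 11.4 and 8.83 TPM in cachectic mice against 2.90, 3.88, 4.70, 2.23 and 2.76 TPM in control mice, with no overlap. The log2 fold change was 1.28 ± 0.35 (limma, adjusted p = 0.0151), with an adjusted p of 0.05001 without control mouse 4. It was 1 of 2 collagen genes in which every cachectic mouse was above every control mouse, with Col23a1, beside 15.9% of all genes. In non-cachectic mice it was at 3.45, 3.84, 6.56, 27.7 and 3.04 TPM, and the value of mouse 4, the highest of all 62 mice, put the groups in overlap (log2 fold change 0.51, adjusted p = 0.488). At 4 weeks the cachectic mice were already at 6.66, 6.75, 5.40, 7.79 and 10.3 TPM, against 3.12, 3.89, 3.87, 2.26 and 3.09 TPM in control and 2.99, 2.79, 3.62, 2.31 and 3.97 TPM in non-cachectic mice. The groups did not overlap, yet the log2 fold change of 0.97 did not pass the test (adjusted p = 0.556).

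Col4a1, Col4a2, Col18a1, Col14a1, Col12a1 and Col22a1 did not pass the test in either comparison at 6 weeks. Col4a1 was at 64.3, 59.97, 57.3, 49.4 and 53.2 TPM in control mice, 89.8, 110, 97.8, 78.4 and 51.3 TPM in non-cachectic mice and 76.5, 62.9, 69.6, 63.5 and 38.7 TPM in cachectic mice. Col4a2 was at 48.1, 41.8, 38.0, 34.6 and 37.3 TPM in control mice, 55.4, 70.7, 68.9, 52.1 and 35.8 TPM in non-cachectic mice and 62.2, 45.0, 47.6, 54.2 and 28.1 TPM in cachectic mice. For both, 4 of 5 cachectic mice lay at or above the middle of the control group. Col18a1 was at 7.06, 7.01, 10.7, 6.57 and 7.52 TPM in control mice, 10.8, 9.58, 14.8, 7.77 and 7.80 TPM in non-cachectic mice and 9.05, 8.01, 7.18, 7.203 and 14.8 TPM in cachectic mice. Col14a1 was at 18.9, 23.7, 31.1, 19.9 and 17.4 TPM in control mice, 24.9, 30.05, 35.8, 29.3 and 31.01 TPM in non-cachectic mice and 23.0, 26.4, 35.0, 15.95 and 19.4 TPM in cachectic mice. All groups overlapped in both genes. Col12a1 was at 1.56, 1.76, 2.12, 2.65 and 1.5002 TPM in control mice, 2.598, 2.39, 3.01, 1.68 and 1.905 TPM in non-cachectic mice and 1.31, 1.503, 2.37, 1.46 and 1.34 TPM in cachectic mice. Col22a1 was at 1.699, 1.97, 1.86, 2.28 and 1.14 TPM in control mice, 2.29, 2.38, 2.18, 1.44 and 0.882 TPM in non-cachectic mice and 0.776, 1.19, 1.04, 1.47 and 0.871 TPM in cachectic mice. In both genes the groups overlapped.

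Earlier weeks gave fewer calls or calls that rested on single libraries. At 4 weeks none of the 31 genes passed in cachectic against control mice (0.0221% of all genes) or against non-cachectic mice (0.0295%). At an unadjusted p under 0.05 there were 5 and 4 of the 31, beside 5.36% and 5.13% of all genes. At 2 weeks 10 genes fell against control: Col18a1 (-1.71), Col15a1 (-1.07), Col6a6 (-1.04), Col4a5 (-0.98), Col4a6 (-0.90), Col11a2 (-0.74), Col8a2 (-0.64), Col22a1 (-0.62), Col4a4 (-0.52) and Col24a1 (-0.45). That is read against 27.8% of all genes tested that fell in this comparison, and none of the 10 passed when the few-gene libraries or the liver-high libraries were left out. Against non-cachectic mice at 2 weeks none passed (0% of all genes; at an unadjusted p under 0.05, 1 collagen gene and 12.6% of all genes). In non-cachectic against control mice at 2 weeks Col18a1 alone fell (-1.74; 4.42% of all genes fell). The control mice 2, 4 and 5 that were high in liver markers at 2 weeks had 57.0, 35.3 and 26.0 TPM of Col18a1, against 5.85 and 10.5 TPM in control mice 1 and 3, and without the liver-high libraries no collagen gene passed. The part of the liver transcripts in this difference was not tested.

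Non-cachectic mice were not separated from control mice at 4, 6 or 8 weeks: no collagen gene and 0% of all genes passed, while 0, 3 and 0 of the 31 genes had an unadjusted p under 0.05, beside 0.501%, 0.736% and 0.405% of all genes. Between 4 and 8 weeks no collagen gene passed in control mice (0% of all genes), in non-cachectic mice (0%) or in cachectic mice (2.07%). At an unadjusted p under 0.05 there were 0, 0 and 15 of the 31, the 15 all lower at 8 weeks, beside 0.884%, 1.24% and 14.1% of all genes. The growth of the cachectic against control difference was tested directly as an interaction, and no gene passed from 4 to 8 weeks (0% of all genes) or from 6 to 8 weeks (0%). At an unadjusted p under 0.05 there were 6 and 13 of the 31, beside 7.53% and 4.27% of all genes. The week in which the fall began was not resolved by these tests.

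The sum over all 44 genes was 467 to 891 TPM (median 790) in control, 313 to 921 TPM (median 733) in non-cachectic and 81.5 to 479 TPM (median 307) in cachectic mice at 8 weeks. At 6 weeks the medians were 492 TPM in control, 799 TPM in non-cachectic and 411 TPM in cachectic mice. The share of fibrillar chains in this sum had a median of 39.7% in control, 41.8% in non-cachectic and 31.8% in cachectic mice at 8 weeks, with a range of 16.2% to 48.9% in the last. The upper end is the few-gene library; without it the cachectic range was 16.2% to 40.2%, which still met the control range of 34.2% to 40.2%.

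Ratios between chains within a mouse do not depend on the scaling of the library. Col1a1 over Col1a2, the ratio of the chains that build type I, was 1.00 to 1.24 in control, 0.981 to 1.42 in non-cachectic and 0.352 to 0.848 in cachectic mice at 8 weeks. At 6 weeks it was 0.938 to 1.04, 0.922 to 1.13 and 0.642 to 0.788. At both times every cachectic mouse lay below all mice of the other groups, also at 6 weeks when neither chain passed the test against control. At 4 weeks (0.617 to 1.16 in cachectic, 0.989 to 1.203 in control mice) and at 2 weeks (0.650 to 1.203 and 1.08 to 1.24) the groups overlapped. The few-gene libraries were lowest in their groups. At 2 weeks these were cachectic mice 3 and 4 (0.696 and 0.650) and non-cachectic mouse 5 (0.739). At 8 weeks the 0.352 was that of cachectic mouse 3, and the next lowest cachectic mouse was at 0.517.

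Col6a5 over Col6a1 separated the groups at an earlier week. It was 0.105 to 0.342 in cachectic mice at 4 weeks against 0.0300 to 0.0703 in control and 0.0346 to 0.0570 in non-cachectic mice. At 8 weeks it was 0.245 to 0.465, against 0.0338 to 0.0885 and 0.0476 to 0.0936. At 6 weeks it was 0.200 to 0.450 in cachectic and 0.0414 to 0.0738 in control mice, and only non-cachectic mouse 4 (0.280) lay among the cachectic mice. At 2 weeks the ranges overlapped (0.0424 to 0.139 in cachectic, 0.0210 to 0.0936 in control mice). The highest values of that week came from few-gene libraries, 0.139 and 0.123 in cachectic mice 3 and 4 and 0.229 in non-cachectic mouse 5.

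Col15a1 over Col4a1 was 0.0651 to 0.268 in cachectic mice at 8 weeks, below the 0.357 to 0.469 of control mice, with non-cachectic mouse 3 at 0.225 inside the cachectic range. At 6 weeks it was 0.121 to 0.193 in cachectic, 0.323 to 0.549 in control and 0.406 to 0.534 in non-cachectic mice, without overlap. Col6a1 over Col6a2 was 2.25 to 2.80 in cachectic, above the 1.88 to 2.08 of control mice at 8 weeks, while non-cachectic mice ran from 1.84 to 2.44 and overlapped the cachectic range. Col4a1 over Col4a2 was 1.19 to 1.596 in cachectic and 1.39 to 1.598 in control mice at 8 weeks, and overlapped. The highest cachectic values at 8 weeks of Col15a1 over Col4a1 (0.268) and Col4a1 over Col4a2 (1.596) were both from mouse 3, the few-gene library. The next highest were 0.165 and 1.384. These ratios are given as descriptions, without a test.

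**Figure D4:**
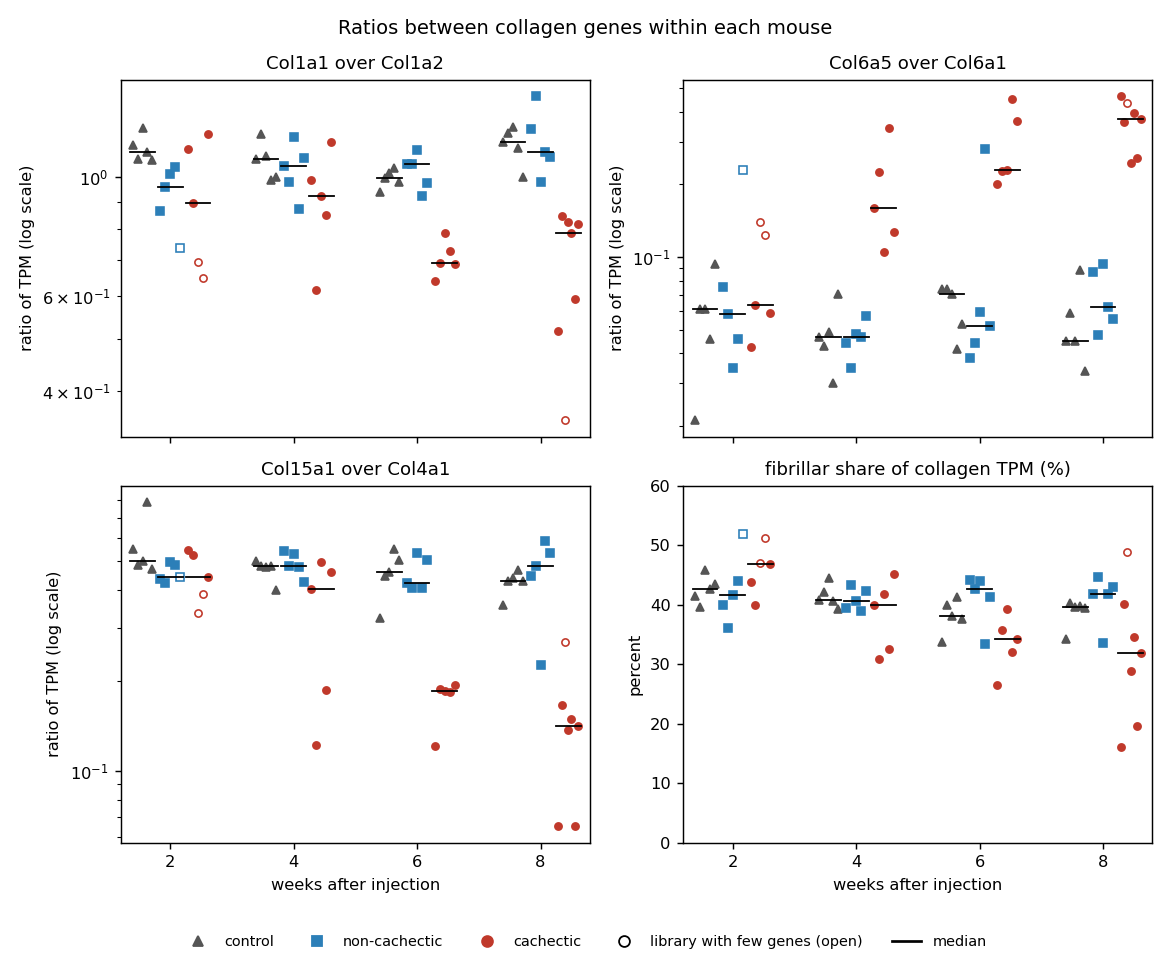
Ratio of TPM between pairs of collagen genes within each mouse (log axes) and the fibrillar share of all collagen TPM (percent, axis from 0), by week; symbols as for the single genes, with medians as bars. Col1a1 over Col1a2 is 0.642 to 0.788 in cachectic mice at 6 weeks with all other mice at 0.922 or above, and Col6a5 over Col6a1 is apart from 4 weeks on except for 1 non-cachectic mouse at 6 weeks.

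Over mice, deviations from the condition means were compared as a description (log2(TPM + 1), 58 mice without the few-gene libraries; the values of a mouse share its library). The partner chains of a type went closely together, Col6a1 with Col6a2 (r = 0.99), Col1a1 with Col1a2 (r = 0.98) and Col4a1 with Col4a2 (r = 0.96). Col1a1 was as close to Col3a1 (r = 0.96), and went with Col6a3 (r = 0.94) and Col5a1 (r = 0.93), less closely with Col4a1 (r = 0.58) and Col6a5 (r = 0.38). Col15a1 was closest to Col5a1 (r = 0.93). The median over pairs of fibrillar chains was 0.55, and 0.72 over all 62 mice.

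The genes that fold, trim and cross-link collagen were taken from a list of 33, of which 30 were tested. At 8 weeks 8 fell and 2 rose against control (median log2 fold change -0.26, all genes -0.09), where 8.12% of all genes fell and 6.65% rose. The cross-linking enzymes went apart: Loxl2 fell from 13.5 ± 3.97 (SD, n = 5) to 4.16 ± 1.87 TPM (n = 7; log2 fold change -1.54, limma adjusted p = 0.000363) and Loxl1 from 22.8 ± 6.35 to 9.996 ± 4.10 TPM (-1.21, adjusted p = 0.00173), without overlap of the groups in either. Lox, the founding member of that family, rose from 4.11 ± 1.67 to 12.6 ± 7.00 TPM (1.25, adjusted p = 0.0016), with cachectic mice from 2.11 to 23.2 TPM. At 6 weeks it was higher too, at 7.83 to 17.6 TPM against 1.82 to 3.39 TPM (2.01, adjusted p = 1.53e-05). Serpinh1, the collagen chaperone HSP47, fell by 0.98 (adjusted p = 0.0418) but ran from 16.9 to 127 TPM in cachectic mice. Sparc, a collagen-binding matrix protein, fell by 0.94 (adjusted p = 0.0127), and Tmem38b, an ion channel of the endoplasmic reticulum, rose by 0.93 on the log2 scale (adjusted p = 0.000144). The other 4 that fell were Colgalt2, Fkbp10, P3h3 and P3h4. At 6 weeks 1 gene of the list fell (Colgalt2) and 3 rose (Lox, Tmem38b and Tll1) against control, where 1.17% of all genes fell and 5.62% rose.

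Of 11 genes of collagen degradation and uptake, 9 were tested, and 3 fell and 1 rose at 8 weeks (median log2 fold change -0.25, all genes -0.09), beside the same 8.12% and 6.65% of all genes. Mmp3, the protease stromelysin 1, rose from 0.981 ± 0.666 to 6.61 ± 3.49 TPM (log2 fold change 1.89, limma adjusted p = 3e-06), with 2.36 to 12.9 TPM in cachectic and 0.108 to 1.68 TPM in control mice. It was also higher at 6 weeks, at 1.84 to 8.63 against 0.162 to 0.322 TPM (2.07, adjusted p = 5.33e-06). Mrc2, the receptor that takes up collagen fragments, fell by 0.97 (adjusted p = 0.0106), Mmp9, a gelatinase, by 0.64 (adjusted p = 0.0447) and Fap, a protease of activated fibroblasts, by 0.46 (adjusted p = 0.0189). Mmp2 (-0.25), Mmp14 (0.13) and Ctsk (-0.25) did not pass. None of the 7 collagen receptor genes tested, of 10, passed at 8 weeks; their log2 fold changes ran from -0.54 for Ddr1 to 0.60 for Adgrg1.

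**Figure D5:**
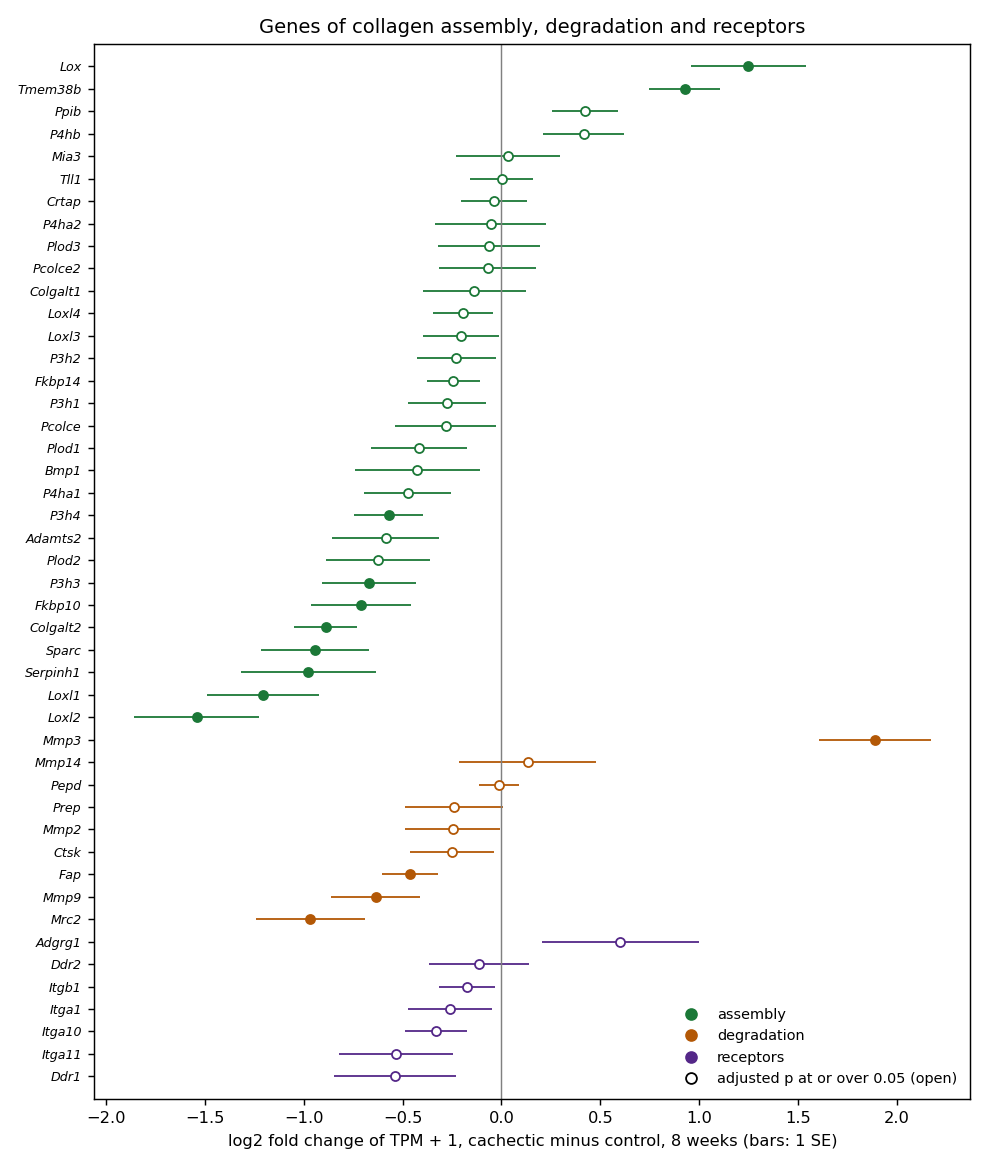
Log2 fold change of TPM + 1 in cachectic against control mice at 8 weeks for 46 genes of collagen assembly, degradation and receptors; bars are 1 SE and filled points have an adjusted p under 0.05. Lox (1.25) and Loxl2 (-1.54) lie at opposite ends of the assembly list, and Mmp3 (1.89) is highest of all.

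Markers of cells that make collagen did not all move with it. The 9 fibroblast markers summed to 1119 to 1871 TPM in control, 1373 to 1746 TPM in non-cachectic and 1292 to 2632 TPM in cachectic mice at 8 weeks. Dcn made up much of these sums, and the median log2 fold change of the 9 was -0.44 against control. Of these 9, 2 rose against control (Dcn, 0.49, and Ly6a, 1.15) and 1 fell (Lum, -0.89), while Pdgfra had a log2 fold change of -0.34 (limma, adjusted p = 0.246). Dcn, a proteoglycan that binds collagen fibrils, was at 832 ± 268 (SD, n = 7) TPM in cachectic and 587 ± 138 (n = 5) TPM in control mice. In the few-gene library of cachectic mouse 3 Dcn was at 642 TPM, inside the range of the other 6 (630 to 1366 TPM), while Col4a1 was at 7.72 TPM against 57.2 TPM or more. Of 5 tendon markers tested 2 fell (Kera, -1.99, and Tnmd, -1.05), and their list of 6 summed to 59.7 to 147 TPM in control and 30.1 to 191 TPM in cachectic mice. Of the 6 endothelial markers Kdr fell (-0.98), with sums of 210 to 268 TPM in control and 61.2 to 254 TPM in cachectic mice. Of the 6 smooth muscle and pericyte markers Cspg4 fell (-0.74). The sums were 342 to 569 TPM in control and 202 to 724 TPM in cachectic mice. None of the markers found in the table was at 0 in all mice of a condition. Among markers of other cells, C1qa (0.93) and Mrc1 (0.91) of macrophages and Fabp4 (0.69) of fat cells rose, and Mb (-0.70) and Pvalb (-1.58) of muscle fibers fell. The macrophage markers summed to 72.2 to 113 TPM in control and 89.2 to 246 TPM in cachectic mice, and the fat cell markers to 566 to 906 TPM and 668 to 2257 TPM. The part of these cells in the fall of the collagen genes was not tested.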

How the data were processed

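RNA-seq was made from the diaphragm of 62 mice. Per the study's methods the authors mapped reads to the mouse genome (mm10) in CLC Genomics Workbench, and they deposited TPM per gene in 1 table; read counts and depth are not analysed here. All columns carry a sample title, and groups came from the labels. Members were all symbols of the form Col, number, a, number; the members, classes and gene lists were chosen with earlier results of these data known. TPM were tested as log2(TPM + 1) in limma 3.58.1 (R 4.3.3, eBayes with trend), with a mean for each of the 12 conditions over all mice, for the 13578 genes that reached 1 TPM in 5 or more mice, two-sided, with Benjamini-Hochberg adjustment over all of them in each comparison. The model was tested on simulated data. The Dunn test is an alternative, run with the same adjustment and not with the cutoffs of the study, which used Kruskal-Wallis and Dunn tests. Other alternatives are scalings, filters, pseudocounts (0.1 TPM), weights, blocks and subsets of mice. Values at 6 and 8 weeks are given by mouse (lowest, median and highest in the 7 cachectic mice at 8 weeks, for most) for 14 chains fixed by rule and for any other among the 5 largest changes at 6 or 8 weeks, which added Col6a5. Of the assembly and degradation lists the 6 with the largest change among those that passed at 8 weeks are given with values, and the other 4 are named only. Promoter windows and gene positions came from RefSeq and GENCODE tables of GRCm38.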

Additional observations from a re-analysis of the deposited data

Results flagged for a closer look

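Of 138 groups of mice (15 genes and 8 sums or ratios, 3 groups, 6 and 8 weeks) 20 held a mouse whose gap to the next exceeded Dixon's 95% limit on the log2(TPM + 1) scale (genes) or the plain scale (sums and ratios), where chance gives about 1 in 20. Cachectic mouse 3 at 8 weeks, the library with few genes, was lowest in Col4a1 (7.72 TPM), Col4a2 (4.84 TPM), Col18a1 (0.699 TPM) and Col22a1 (0.0969 TPM). Non-cachectic mouse 3 at 8 weeks was lowest in Col1a1 (19.4 TPM), Col1a2 (19.8 TPM), Col15a1 (10.9 TPM), Col6a5 (2.45 TPM) and the fibrillar share (33.5%). Control mouse 1 at 8 weeks was lowest in Col1a2 (30.3 TPM), the fibrillar share (34.2%) and Col1a1 over Col4a1 (0.432).

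At 6 weeks, non-cachectic mouse 4 was highest in Col6a5 over Col6a1 (0.28) and lowest in the fibrillar share (33.4%). Control mouse 1 was lowest in Col15a1 (20.7 TPM) and Col6a2 (15.9 TPM), and control mouse 3 was highest in Col18a1 (10.7 TPM). Among cachectic mice, mouse 5 was lowest in Col4a1 (38.7 TPM), mouse 3 highest in Col12a1 (2.37 TPM) and mouse 1 lowest in Col15a1 over Col4a1 (0.121).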

How the results depend on the processing

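No collagen gene called in the 4 comparisons of cachectic mice at 6 and 8 weeks changed sign under the 11 alternatives followed gene by gene, which leave out the Dunn test. Of the 17 genes that fell against control at 8 weeks, 7 passed under all of those 11 and all 12 fits without 1 mouse (Col3a1, Col5a1, Col15a1, Col4a5, Col6a1, Col6a2 and Col6a3), and 4 of the 15 against non-cachectic mice (Col15a1, Col4a5, Col6a2 and Col6a3). Against control, Col5a3 and Col4a6 passed in 6 of the 12 fits without 1 mouse, Col8a1 and Col8a2 in 7 and Col24a1 in 8. At 8 weeks the Dunn test called 11 and 5 genes against control and non-cachectic mice and a fit of only the groups compared 7 and 4. Counts without 1 mouse were 12 to 20 and 10 to 16. For none of these fits is the share of all genes given, so the counts do not show whether collagen genes stood apart in them.

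At 6 weeks against control, where 1 gene was called, the count was 5 with median-ratio scaling, 6 with quantile normalization, 3 without mitochondrially encoded genes, 11 with array weights, 0 by the Dunn test, 10 in the groups compared alone, 10 without the few-gene libraries, 5 without those and the liver-high libraries (chosen after seeing the data) and 0 (without control mouse 4) to 2 (without cachectic mouse 1) without 1 mouse. Against non-cachectic mice, where 6 were called, it was 12, 13, 17 with array weights, 0 by Dunn, 13 in the groups alone, 14 without the few-gene, 3 without the liver-high, 11 without both sets and 3 to 6 without 1 mouse (3 without cachectic mouse 4 or non-cachectic mouse 3). Scalings moved the median of all genes at 6 weeks against control from 0.17 to 0.01 and, at 2 weeks, from -0.42 to -0.06 (median-ratio). Col4a1 and Col14a1 at 6 weeks against control, not called, turned to -0.0896 and -0.0964 (median-ratio), -0.0881 and -0.105 (quantile) and -0.0666 and -0.0756 (without mitochondrially encoded genes); Col14a1 ran from -0.0564 to 0.21 without 1 mouse, and Col18a1 against non-cachectic mice from -0.30 to 0.00159.

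At 2 weeks against control, the count of 10 became 5 (median-ratio), 3 (quantile), 0 (array weights, Dunn, the groups alone, and without the few-gene, the liver-high or both sets) and 0 to 26 without 1 mouse: 26, 19, 0, 1 and 23 without cachectic mice 1 to 5 and 0, 6, 5 and 3 without control mice 2 to 5. In non-cachectic against control mice at 2 weeks the 1 call became 7 with array weights, 2 without the few-gene libraries, 0 by Dunn, in the groups alone, without the liver-high or both sets, and 0 (without control mouse 2) to 3 (without control mouse 1 or non-cachectic mouse 4) without 1 mouse. Where none was called, array weights called 6 and 4 at 4 weeks against control and non-cachectic mice, 4 in non-cachectic against control mice at 6 weeks, 5 and 1 in the interactions from 4 and 6 to 8 weeks, 2 in control and 11 in cachectic mice from 4 to 8 weeks. At 4 weeks the groups alone called 1 in each comparison, and leaving out the few-gene or both sets 1 against control. From 4 to 8 weeks in cachectic mice the 3 scalings called 2 each, and leaving out the few-gene or both sets 4 and 3; without 1 mouse it was 0 to 2, the latter without mouse 2 at 4 weeks. Cachectic against non-cachectic mice at 2 weeks had 0 to 1 without 1 mouse. The Dunn test was not run for the interactions. The cause of these shifts was not tested. The share of all genes called under each alternative is not given here, so these counts alone do not set collagen genes apart from other genes.

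Replicate numbers were not taken to pair the mice. Of 60 same-numbered pairs 18 correlated above 0.1 (median -0.03, from -0.63 to 0.39), and the highest was at 8 weeks. Differently numbered pairs were not compared, so this does not settle whether the numbers pair the mice. With the replicate number as a block the counts were 17 and 15 at 8 weeks, 1 and 5 at 6 weeks, 6 in place of 10 at 2 weeks against control, and otherwise as without it. TPM hide depth, so low chains carry no counting error here.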

Other observations

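Col17a1, a collagen of epithelial anchoring, was at 4.06 TPM in cachectic mouse 1 at 2 weeks and between 0.0542 and 1.05 TPM in the other 61 mice. Krt14, a keratin of stratified epithelium chosen after these values were seen, was at 26.4 TPM in the same mouse and between 0.273 and 6.88 TPM in the others. Whether that sample held epithelium was not tested.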
